A study of Mus musculus with 12 samples.

Results

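The comparison set Sox9 High, a gate known from this reporter to be rich in enteroendocrine and tuft cells, against Sox9 Low, the gate known to hold the stem cells. Both were sorted by flow cytometry from intestinal epithelial cells of C57Bl/6 mice by a Sox9-GFP reporter, whose brightness stands in for the level of Sox9, a transcription factor of the crypt. A library came from 12000 sorted cells, whose total RNA was freed of ribosomal RNA, and each gate had 3 (A, B and C). The members were the gene symbols that reached 10 in 3 or more of the 12 libraries of the series, which kept 16577 of 30265. The labels name neither a treatment nor an age. They do not say whether different animals gave the replicates, so the p-values speak only of the spread between these libraries, which may be technical.

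Enteroendocrine cells are scattered hormone cells of the gut lining. They sense nutrients through receptors on their surface, fire action potentials, and release peptides and serotonin from granules by the same exocytosis machinery that neurons use. Tuft cells are chemosensory cells with a bristle of long microvilli, which signal through a taste-like cascade to release interleukin-25, eicosanoids and acetylcholine. Stem cells at the crypt base divide constantly and supply all epithelial lineages, including the mucus-secreting goblet cells and the antimicrobial Paneth cells.

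High libraries held between 14.5 M and 15.8 M reads and Low libraries between 11.6 M and 15.6 M (M, 1e6). Values below are normalised read counts, that is reads divided by a size factor of the library, and log2 differences are High minus Low with their standard error. A gene is called when limma with Benjamini-Hochberg adjustment over all 16577 genes gave an adjusted p below 0.05. Differences and folds were computed from log2(value + 1), which understates the change of low genes. Of the genes tested 42.9% were called, 3915 (23.6%) higher and 3195 (19.3%) lower in High, with a median log2 difference of 0.10 over all genes. At least 8-fold, 285 were higher and 304 lower. Sox9 itself measured 18857, 21059.5 and 20868 in the High libraries and 7655, 5945 and 6204 in the Low libraries, 3.08-fold higher in High (limma adjusted p = 0.000874), so the libraries were in the order of their gates.

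**Figure D1:**
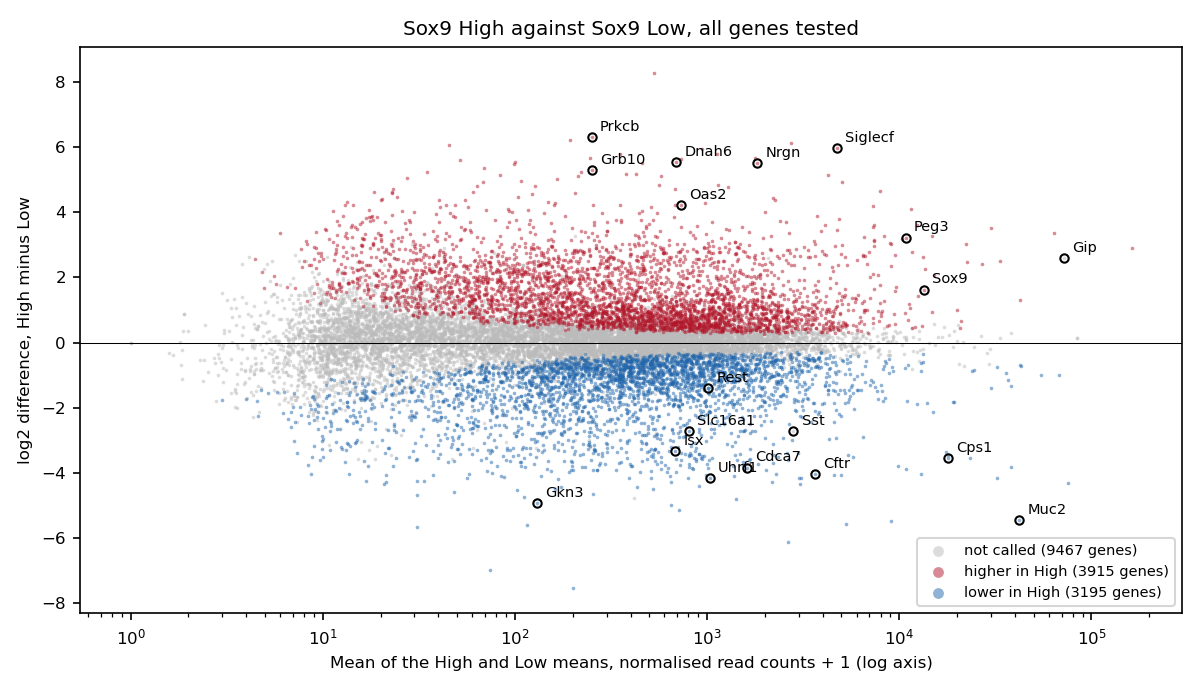
Log2 difference, High minus Low, of each of the 16577 genes tested (y axis) against the mean of both gate means in normalised read counts plus 1 (x axis, log). Red points were called higher in High (3915 genes), blue points lower (3195) and grey points neither, and Gip and Sst lie far from 0 among the genes that were not called.

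The labelled gates were described by markers of 11 cell types. These lists were chosen with earlier results of these data known, so their counts are no independent test of the gates. All 10 enteroendocrine and all 10 tuft markers were higher in High, and all 10 crypt base stem markers and all 10 goblet markers were lower, as were 9 of 10 Paneth markers. Enteroendocrine markers summed to 3.38% ± 0.757 of all normalised reads in High and 0.448% ± 0.141 in Low (SD, n = 3 each), tuft markers to 0.889% ± 0.0121 in High and 0.103% ± 0.0299 in Low, and crypt base stem markers to 0.0885% ± 0.0317 in High and 0.967% ± 0.134 in Low. Goblet markers made up 0.0798% ± 0.0148 of the reads in High and 2.08% ± 1.42 in Low, and the sum in Low B (488729.6) was far above those in Low A (144053) and Low C (171400.3). In bulk samples, fewer cells of a type and less RNA per cell cannot be told apart.

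Markers of cells outside the epithelium were detected in both gates, and their part in the results was not tested. Ptprc, the leukocyte antigen CD45, which tuft cells also make, measured 2110.1, 1933 and 3363 in High and 92.6, 60.8 and 114 in Low, a 27.4-fold difference (4.78 ± 0.25, limma adjusted p = 3.46e-07). T and NK cell markers summed to between 467 and 659 in High and between 416 and 486 in Low, with 5 of 12 below the filter and none of the other 7 called by limma, although 1 was called higher by edgeR and 1 without Low B. Those of B and plasma cells summed to between 51.4 and 63.4 in High and between 43.6 and 79.6 in Low, with 7 of 8 below the filter. Stroma and endothelium markers summed to between 3768 and 5664 in High and between 1287 and 1892 in Low. Of these 14 markers 7 were below the filter, and none of the other 7 was called by limma. Vim gave the greater part of the sum in High, at 3519 ± 925 of 4502 ± 1018. In Low it did not, at 625 ± 350.5 of 1532 ± 318. Vim was not called by limma (adjusted p = 0.173), although it was by edgeR (adjusted p = 0.0102). No marker of these lists was at 0 in all 6 libraries.

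**Figure D2:**
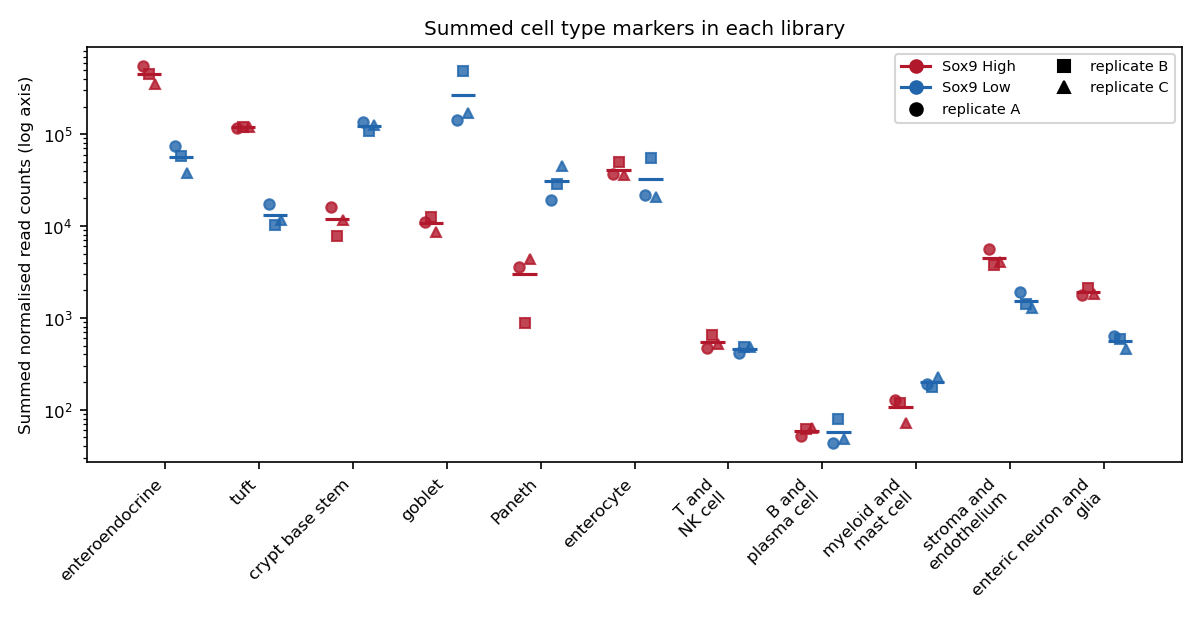
Summed normalised read counts (y axis, log) of each list of cell type markers in the 3 High libraries (red) and the 3 Low libraries (blue), with symbols for replicates A, B and C and a line at the gate's mean. High lies above Low for the enteroendocrine, tuft, stroma and neuron lists, Low above High for the stem, goblet, Paneth and myeloid lists, and Low B stands above the other Low libraries for goblet and enterocyte markers.

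Among the products of enteroendocrine cells, 12 of 16 tested genes of peptide hormones and transmitter precursors were higher in High, none was lower by limma, and the median log2 difference was 2.84. Ucn3, which encodes the stress-related peptide urocortin 3, measured 397, 236 and 269 in High and 18.5, 17.1 and 10.3 in Low (log2 difference 4.21 ± 0.55, limma adjusted p = 9.06e-05). Vgf, the precursor of several neuroendocrine peptides, measured 659, 861 and 569 in High and 113, 108 and 65.8 in Low (2.87 ± 0.45, limma adjusted p = 0.000325). Tac1, the precursor of substance P, had 3536, 1883 and 2947 in High and 569, 271 and 491 in Low, and rose by 2.67 on the log2 scale. For each of these 3 genes the lowest High library lay above the highest Low library.

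Not every hormone followed. Sst, which encodes the inhibitory hormone somatostatin of D cells, measured 1036, 430.3 and 746 in High and 3566, 7428 and 3625 in Low. All 3 High libraries lay below all 3 Low libraries, but the difference of -2.72 ± 1.44 was not called in the fit of all 4 gates (limma adjusted p = 0.148). It was called by edgeR (adjusted p = 0.0274) and by limma on the High and Low libraries alone (adjusted p = 0.000245). Hhex, a transcription factor of D cells, fell, with 47.8, 53.4 and 38.9 in High and 107, 136 and 130.0 in Low (-1.40 ± 0.24, limma adjusted p = 0.000586). Gip, the incretin of K cells, was higher in each High library, with 111408, 138271 and 120100.3 in High and 20227, 24385 and 16713 in Low. It was not called by limma in the fit of all 4 gates either (2.60 ± 1.11, adjusted p = 0.0777), though it was by edgeR and DESeq2. Limma on the High and Low libraries alone called it (adjusted p = 6.4e-06). The fit of all 4 gates shares 1 spread, which includes the Negative gate, where Gip averaged 185 ± 243. Gcg, the glucagon precursor, averaged 14988 ± 921 in High and 1655 ± 744 in Low (limma adjusted p = 0.0428). Nts, neurotensin, averaged 54832 ± 16182 in High and 5270.3 ± 2788 in Low (limma adjusted p = 0.042). Both calls were lost when any 1 of the 6 libraries was left out of the fit of all 4 gates. The same held with log2(value + 0.5), without the filter on genes, with limma's robust setting and without Negative C. Both calls were kept by limma on the High and Low libraries alone.

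Of 17 tested genes of the serotonin pathway 9 were higher, 2 lower and 6 not called. The higher ones included genes of synthesis and packaging: Ddc, the decarboxylase that forms serotonin (log2 difference 2.28), Gch1, which starts synthesis of the tetrahydrobiopterin cofactor (2.35), and the vesicular monoamine transporters Slc18a1 (2.79) and Slc18a2 (1.92). Trpa1, an irritant-sensing cation channel of enterochromaffin cells, measured 5179, 3058 and 4317 in High and 289.8, 138 and 163 in Low, a 21.8-fold difference (4.44 ± 0.95, limma adjusted p = 0.00245). The lower ones were Maoa, which degrades serotonin (832 ± 48.1 in High, 1623 ± 369 in Low), and Htr4, a serotonin receptor, with 13.5, 6.45 and 25.3 in High and 212, 154 and 229 in Low (-3.79 ± 0.50, limma adjusted p = 9.36e-05). The reuptake transporter Slc6a4 (-0.36) and the mechanosensor Piezo2 (0.37) were not called.

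Receptors for nutrients and hormones rose in 15 of 22 tested cases and fell in 1, with a median of 1.48. Many are low genes, and 9 were called higher among genes with a mean of at least 50. Ffar3, a receptor for short-chain fatty acids, measured 752, 746 and 982 in High and 58.8, 46.2 and 49.9 in Low (3.97 ± 0.46, limma adjusted p = 4.11e-05). Ffar1, for long-chain fatty acids, measured 444, 474 and 504 in High and 54.5, 30.8 and 31.7 in Low (3.62 ± 0.49), and Gpr119, for lipid amides, 539, 545 and 587 in High and 46.8, 55.7 and 28.5 in Low (3.69 ± 0.60). The High libraries agreed closely for these 3 receptors and none approached the Low range. Casr, the calcium-sensing receptor, rose by 2.85, the galanin receptor Galr1 by 2.22 and the somatostatin receptor Sstr5 by 3.23 on the log2 scale. Olfr558, an odorant receptor gene, measured 141, 69.1 and 101 in High and 5.45, 5.99 and 1.58 in Low, the widest difference of the list (4.36 ± 0.55, limma adjusted p = 7.14e-05). Its Low values rest on 14 reads over the 3 libraries. The receptor that fell was Gpr35 (211, 201 and 163 in High, 289.8, 389 and 415 in Low).

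Ion channels of excitable cells were higher in 22 of 28 cases and lower in 1 (median 2.05). Cacna1a, the pore of P/Q-type calcium channels, had 11269, 11822 and 10752 in High and 3428, 2887 and 2178 in Low (2.02 ± 0.19, limma adjusted p = 1.1e-05). Kcnb2, a delayed rectifier potassium channel, had 3259, 3411 and 3389 in High and 600.2, 551 and 526 in Low (2.58 ± 0.24). Both subunits of the ATP-sensitive potassium channel, which couples glucose to secretion in pancreatic beta cells, rose: Abcc8 by 2.84 and Kcnj11 by 2.49. Sodium channel pores Scn3a (2.41) and Scn8a rose, whereas the accessory subunit Scn2b measured 134, 59.0 and 82.8 in High and 769, 681 and 620.5 in Low (-2.97 ± 0.31, limma adjusted p = 2.05e-05).

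Of 33 tested genes of regulated exocytosis 29 were higher and 2 lower (median 2.13). Rab3c, a granule GTPase, measured 4186, 2676 and 3757 in High and 467, 281 and 398 in Low (3.21 ± 0.23, limma adjusted p = 1.48e-06). Snap25, a SNARE of the plasma membrane, measured 812, 1051 and 927 in High and 143, 179.8 and 157 in Low (2.53 ± 0.39). The priming factors Cadps (2.74) and Unc13a (2.38), the active zone protein Rimbp2 (2.65) and the calcium sensor Syt1 (3.27) rose too. Pam, which amidates peptide hormones inside the granule, was among the 10 largest t statistics of all genes, with 10375, 9664 and 10839.6 in High and 1995, 1598 and 1765 in Low (2.53 ± 0.13, limma adjusted p = 3.46e-07). The 2 that fell were synaptotagmin-like effectors of Rab27: Sytl2 (146, 175 and 148 in High, 710.2, 1862 and 925 in Low) and Sytl4 (62.2, 64.5 and 65.0 in High, 164, 163 and 128 in Low).

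Neuronal RNA-binding and cytoskeletal genes were higher in 15 of 24 cases and lower in 1 (median 1.66). The microtubule protein Map2 measured 2043, 2037 and 2791 in High and 239.6, 158 and 209 in Low (3.50 ± 0.31, limma adjusted p = 6.94e-06). The splicing regulators Celf3 (2.56), Nova2 (1.78) and Srrm3 (1.91) rose. The member that fell was Rest, the repressor of neuronal genes outside neurons, with 586, 539 and 547 in High and 1476, 1351 and 1550.0 in Low (-1.38 ± 0.16, limma adjusted p = 3.85e-05). The neuronal tubulin Tubb3 was not called (48.7, 37.8 and 24.5 in High, 27.2, 23.1 and 20.6 in Low). Nrgn, a calmodulin-binding protein known from neurons, had the largest t statistic among the rises of all genes, with 3468, 3972 and 3258 in High and 87.1, 69.4 and 76.1 in Low, a 45.5-fold difference (5.51 ± 0.25, limma adjusted p = 1.68e-07). Enteric neuron and glia markers summed to between 1780 and 2121 in High and between 462 and 629.6 in Low, with 3 of 6 tested members higher, or 1 without Low B. No tested member was lower. Hand2, 1 of the 10 markers and a factor of enteric neurons, had reads in Low C alone. The part of such cells in these values was not tested.

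Of 30 enteroendocrine transcription factors 16 rose and 2 fell (median 1.71), or 1 fell without High B, High C or any Low library. Etv1 measured 1305, 1406 and 1728 in High and 181, 100.2 and 149 in Low (3.39 ± 0.61, limma adjusted p = 0.000786). Lmx1a, a factor of the serotonin lineage, rose by 2.88 and Myt1 by 2.42. Pdx1, which is made across the duodenal epithelium, averaged 364 ± 34.3 in High and 276 ± 43.6 in Low and missed the threshold (limma adjusted p = 0.0848, against 0.0205 with the replicate block).

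**Figure D3:**
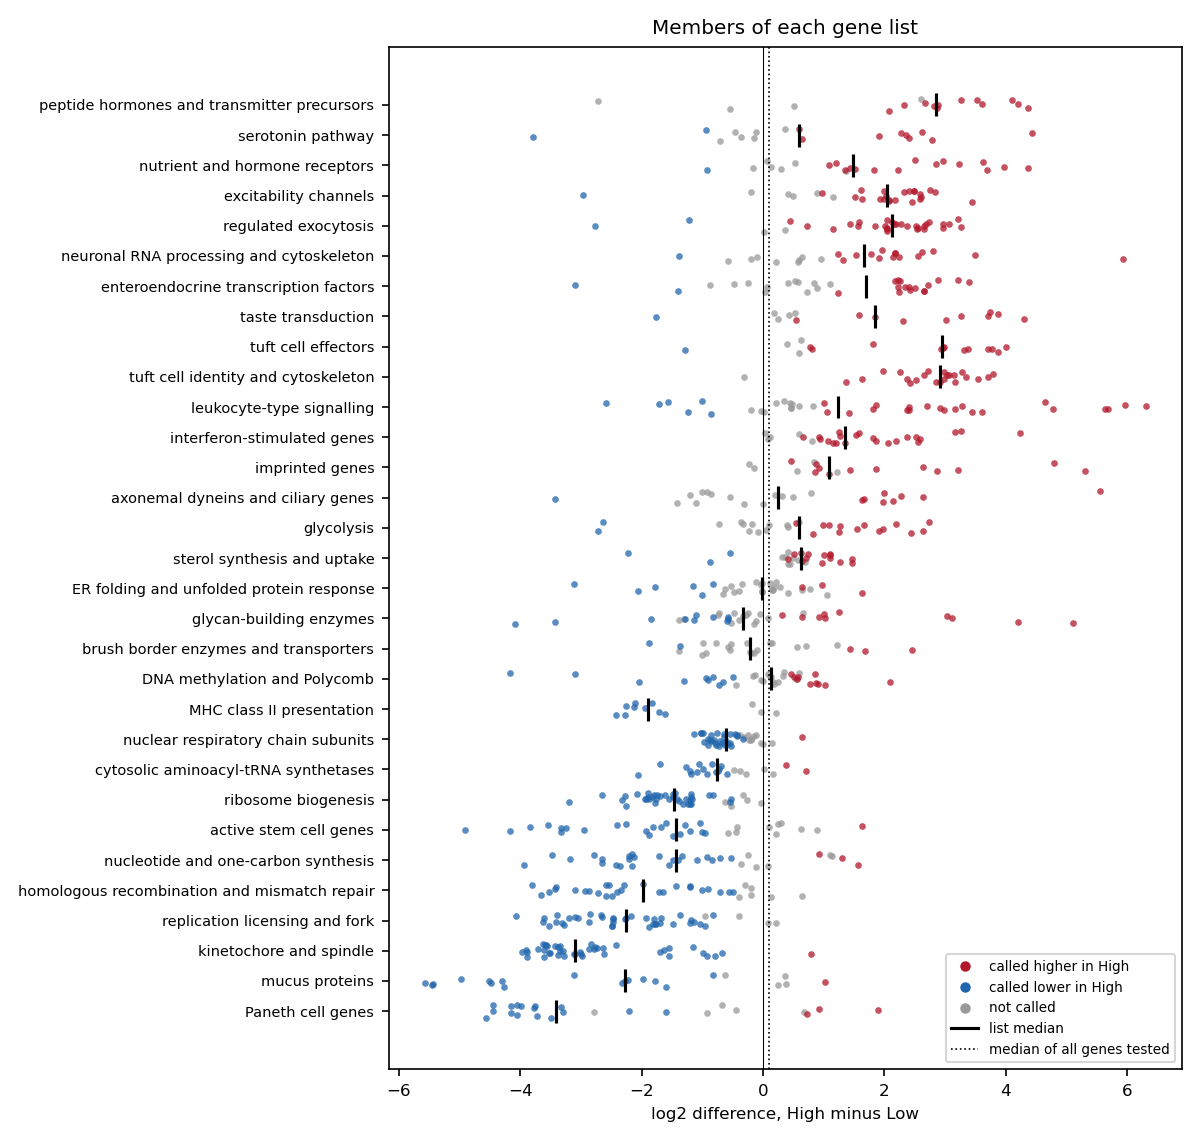
Log2 difference, High minus Low (x axis), of each tested member of 31 gene lists (rows), coloured by call, with a black bar at the list's median and a dotted line at the median of all genes tested (0.10). Lists of secretory signalling lie to the right, those of the cell cycle, ribosome biogenesis and mucus to the left, and glycan-building enzymes and DNA methylation and Polycomb genes spread to both sides.

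Taste transduction genes rose in 10 of 15 tested cases and fell in 1 (median 1.84), with 9 of 24 members, among them 4 bitter receptors, below the filter. Gnat3, the taste G protein gustducin, measured 231, 294 and 495 in High and 14.2, 15.4 and 42.0 in Low (3.88 ± 0.63, limma adjusted p = 0.000393). Sucnr1, the receptor through which tuft cells detect succinate, measured 208, 169 and 465 in High and 10.9, 7.71 and 19.8 in Low (4.30 ± 0.83). For both, replicate C was the highest library of each gate. The release channel Itpr3 rose by only 0.55 (10444 ± 369 in High, 7194 ± 939 in Low), and Gng13, the usual partner of gustducin, was not called (62.8 ± 16.0 in High, 56.7 ± 23.8 in Low). Trpm4, a relative of the taste channel Trpm5, fell, with 295, 395 and 217 in High and 1042, 1317 and 735 in Low (-1.77 ± 0.31, limma adjusted p = 0.000668).

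Tuft cell effectors rose in 12 of 16 cases and fell in 1 (median 2.95). Chat, which makes acetylcholine, measured 719, 883 and 943 in High and 107, 86.5 and 55.5 in Low (3.38 ± 0.27, limma adjusted p = 3.02e-06). Ptgs2, the inducible cyclooxygenase, measured 128, 107 and 201 in High and 4.36, 11.1 and 15.8 in Low (3.78 ± 0.54), and Il17rb, the receptor for interleukin-25, 1815, 1937 and 2116 in High and 194, 130.2 and 131 in Low (3.70 ± 0.26). No Low library reached the High range for any of these. The single fall was at a branch of leukotriene synthesis: Lta4h, which makes leukotriene B4, measured 1016, 970.3 and 866 in High and 2342, 2472 and 2099 in Low (-1.28 ± 0.14, limma adjusted p = 2.57e-05), whereas Ltc4s, which makes leukotriene C4 from the same substrate, rose by 2.99.

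Of 23 genes of tuft identity and cytoskeleton 22 rose and none fell (median 2.92). The transcription factors Gfi1b (3.35) and Spib (2.92) were among them. Keratins rose in 5 of 9 cases, with Krt18 at 58611, 66959 and 45134 in High and 11046, 10498 and 8155 in Low (2.52 ± 0.28), while Krt19 fell, with 2786, 2498 and 1837 in High and 7784, 9760.2 and 7650.3 in Low (-1.84 ± 0.20, limma adjusted p = 2.39e-05).

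Signalling genes best known from leukocytes were higher in 21 of 38 cases and lower in 6 (median 1.23). Over all genes the shares were 23.6% higher and 19.3% lower. Prkcb, a protein kinase C, measured 472, 511 and 501 in High and 3.27, 5.99 and 7.13 in Low, a 79.4-fold difference (6.31 ± 0.78, limma adjusted p = 5.97e-05). Its Low values rest on 19 reads over the 3 libraries, so the fold is uncertain. Siglecf, a sialic acid-binding lectin, measured 8859, 9483 and 9484 in High and 289, 64.2 and 173 in Low (5.96 ± 0.67). Ptpn6, the phosphatase SHP-1, measured 15094, 15301 and 10479.8 in High and 1585, 1016 and 823 in Low (3.61 ± 0.24), and Inpp5d, the phosphatase SHIP1, rose by 3.45. The phospholipase Plcg2 rose by 2.41, Plcg1 was at -0.04 and not called, and the kinase Lyn (1.82) rose while its relative Fgr (-2.58) fell, as did Syk. Syk measured between 112 and 128 in High and between 329 and 379 in Low (-1.57 ± 0.20, limma adjusted p = 8.09e-05). Irf8, a factor of myeloid and lymphoid cells, fell as well, with 309, 344 and 252 in High and 1036, 1092 and 849.5 in Low.

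Beside these values, markers of myeloid and mast cells summed to between 71.0 and 129 in High and between 178 and 229.8 in Low. Of 6 tested, 3 were lower in High, or 1 without High B, Low A or Low C. A single one was higher, the macrophage antigen Adgre1 with 54.1, 35.0 and 14.4 in High and 1.09, 0 and 0 in Low. The mast cell protease Mcpt1 had no reads in any High library, and Tyrobp and Fcer1g, adaptors of leukocyte receptors, stayed below the filter. The part of such cells in the values of the signalling genes was not tested.

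Interferon-stimulated genes rose in 22 of 27 cases and none fell, with a median of 1.35 against 0.10 for all genes. Oas2, a sensor of double-stranded RNA, had the widest difference, with 1652, 1209.9 and 1291 in High and 101, 56.5 and 65.8 in Low, an 18.7-fold difference (4.23 ± 0.25, limma adjusted p = 7e-07). Usp18, which removes the ISG15 modifier and dampens interferon signalling, measured 966, 873 and 709 in High and 112, 106 and 53.9 in Low (3.27 ± 0.51). Irf7, a factor that amplifies the response, measured 1848, 1624 and 1749 in High and 309, 358 and 234 in Low (2.55 ± 0.35). Stat2, a subunit of the signalling complex, rose by 1.58. Irf1, a primary target of interferon gamma, was not called and measured 1434, 1412 and 1355 in High and 1429, 1578 and 1135 in Low. Low C was the lowest Low library for most members and without it 13 members were called higher. Ifit1 (343 ± 75.1 in High, 83.9 ± 52.9 in Low) was lost in that fit, with an adjusted p of 0.0518 against 0.0107 by limma with all libraries. An interferon-induced gene outside the list went the other way: Ifitm3, a membrane protein that restricts virus entry, measured 34.3, 9.21 and 13.5 in High and 354, 310.0 and 279.7 in Low (-4.18 ± 0.54, limma adjusted p = 8.7e-05).

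**Figure D4:**
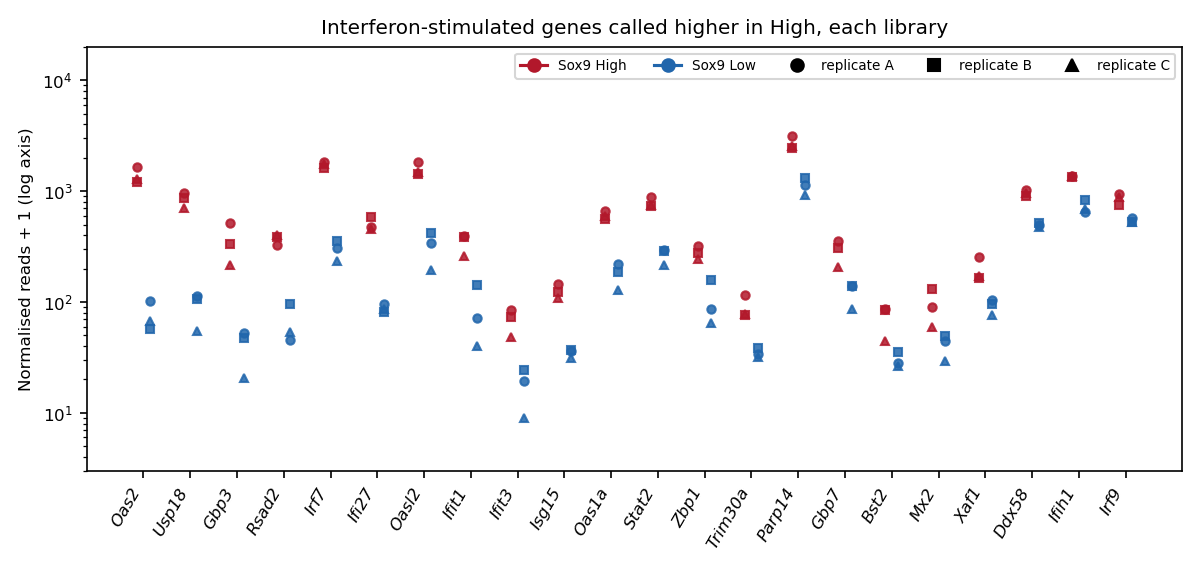
Normalised read counts plus 1 (y axis, log) of the 22 interferon-stimulated genes called higher, in each High library (red) and each Low library (blue), ordered by log2 difference. Oas2, Usp18 and Gbp3 at the left show the widest gaps, and Low C is often the lowest point.

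Many interferon-stimulated promoters carry the interferon-stimulated response element, the sequence bound by STAT and IRF proteins. In the 250 bases before the start of transcription (RefSeq, GRCm38.p6), GAAA, any 2 bases and GAAA again, read on either strand, was found for 11 of 20 list members with an entry (55.0%), against 378 of 11675 tested genes (3.24%). The list was chosen as interferon-stimulated genes, so a high share was likely beforehand and does not bear on High against Low. Of all genes called higher with an entry, 108 of 2911 had the motif (3.71%), and of those called lower 75 of 2314 (3.24%). The stretches from 120 bases before the start up to the start are shown for 3 members that rose, with every match in capitals. They place the motif beside genes of different size of change. Matches that overlap run together.
Ifit1: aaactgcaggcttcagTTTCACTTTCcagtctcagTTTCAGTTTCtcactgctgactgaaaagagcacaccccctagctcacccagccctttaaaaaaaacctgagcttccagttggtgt
Isg15: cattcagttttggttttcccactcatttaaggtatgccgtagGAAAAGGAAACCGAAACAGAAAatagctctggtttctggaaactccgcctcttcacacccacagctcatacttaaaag
Gbp3: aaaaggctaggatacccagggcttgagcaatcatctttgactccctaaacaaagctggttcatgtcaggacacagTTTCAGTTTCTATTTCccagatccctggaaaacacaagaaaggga
These lie at chr19:34640769-34640888 on the plus strand (Ifit1), chr4:156200819-156200938 on the minus strand (Isg15) and chr3:142559924-142560043 on the plus strand (Gbp3). Isg15, the ubiquitin-like modifier, measured 145, 123 and 107 in High and 34.9, 36.0 and 30.1 in Low (1.86 ± 0.37, limma adjusted p = 0.00158). Gbp3, a guanylate-binding protein, measured 513, 329.9 and 215 in High and 51.2, 46.2 and 19.8 in Low (3.16 ± 0.49, limma adjusted p = 0.000286). The motif was also present before Gbp2, which was not called, and a match is a description of the letters and not of binding.

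MHC class II genes, which interferon gamma induces through Ciita, were lower in 9 of 12 cases and higher in none (median -1.89). Ciita measured 76.7, 36.9 and 47.3 in High and 349, 185 and 174 in Low (-2.11 ± 0.45, limma adjusted p = 0.00232). Cd74, the invariant chain, measured 867, 348 and 364 in High and 3996, 1718 and 1832 in Low (-2.28 ± 0.41). In both gates replicate A was the highest for these genes.

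Imprinted genes, which are read from the allele of a single parent, were higher in 12 of 17 tested cases and lower in none, with a median of 1.08. Grb10, an adaptor that restrains growth factor signalling, measured 503, 517 and 449 in High and 7.63, 16.3 and 11.9 in Low, a 39.4-fold difference (5.30 ± 0.42, limma adjusted p = 3.15e-06). Zim1 measured 117, 122 and 125 in High and 1.09, 5.14 and 5.55 in Low (4.80 ± 0.59), and its neighbour Peg3, a zinc finger protein, 18074, 19890.2 and 20405 in High and 2467, 1958 and 1881 in Low (3.22 ± 0.32). Cdkn1c, an imprinted inhibitor of the cell cycle, measured 2511, 2572 and 1755 in High and 388, 262 and 284 in Low (2.87 ± 0.26, limma adjusted p = 7.45e-06). The High and Low ranges of these 4 genes were far apart. Over the 3 Low libraries, Grb10 had 41 reads and Zim1 had 14, so their folds are uncertain. Mest (-0.14) and Phlda2 (-0.23) were not called.

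Genes of motile cilia were mixed, with 8 of 22 higher and 1 lower (median 0.25), or 4 higher among genes with a mean of at least 50. The shares over all genes were 23.6% higher and 19.3% lower. Dnah6, an axonemal dynein, measured 1267, 1374 and 1402 in High and 28.3, 27.4 and 27.7 in Low (5.55 ± 0.41, limma adjusted p = 2.05e-06). Another dynein, Dnah8, went the other way, with 334, 175 and 273 in High and 2511, 2958 and 2667 in Low (-3.42 ± 0.37). Foxj1, the master factor of motile cilia, stayed below the filter.

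**Figure D5:**
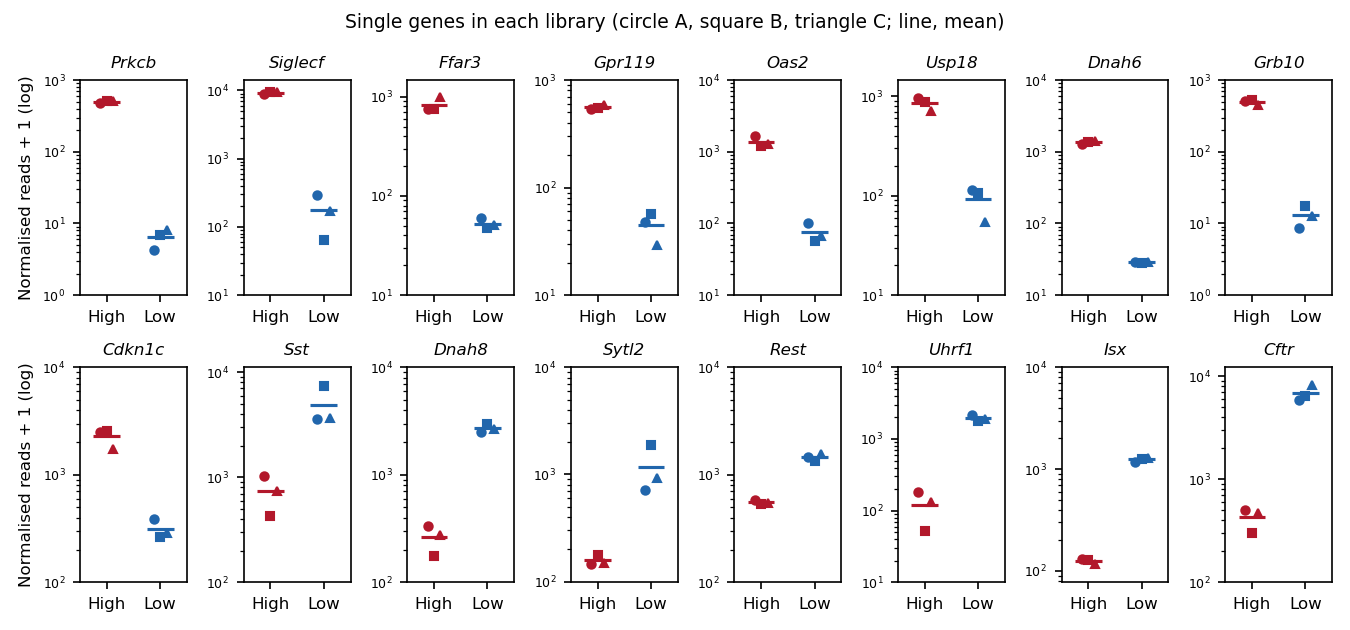
Normalised read counts plus 1 (y axis, log) of 16 genes in the High libraries (left, red) and the Low libraries (right, blue), with a symbol for each replicate and a line at the mean. The first 9 genes were called higher in High and the last 6 lower, and Sst, between them, was not called although its ranges do not overlap.

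Of 43 tested genes of licensing and the replication fork 39 fell and none rose (median -2.25). Mcm6, a subunit of the replicative helicase, measured 371, 231 and 345 in High and 3113, 2582 and 3331 in Low (-3.27 ± 0.38, limma adjusted p = 4.01e-05). Cdc6, which loads that helicase, measured 28.0, 14.7 and 22.8 in High and 288, 234 and 298 in Low (-3.62 ± 0.38). High B was the lowest library for both. The origin recognition complex was divided: Orc1, its cell cycle-regulated subunit, measured 13.5, 6.45 and 20.3 in High and 141, 119 and 130.0 in Low (-3.31 ± 0.56), whereas Orc3 (877 ± 71.0 in High, 754 ± 45.7 in Low) and Orc4 (676 ± 15.4 in High, 642 ± 139.7 in Low) were not called.

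Many replication genes are known targets of E2F factors, whose part in these falls was not tested. E2f1 (51.4, 32.3 and 35.5 in High, 288, 229.5 and 189 in Low) and the atypical E2f8 (129.9, 46.1 and 81.9 in High, 1256, 1219 and 996 in Low) fell, and E2f2 was not called (513 ± 71.1 in High, 543 ± 135 in Low). Within 250 bases before the start, TTTGGCGC, TTTCCCGC, TTTGCCGC or TTTCGCGC on either strand was found for 9 of 34 licensing and fork genes with an entry (26.5%), against 407 of 11675 tested genes (3.49%). Orc3, which was not called, was among the 9. Since the list holds known targets, its high share was likely beforehand. Of all genes called lower with an entry, 128 of 2314 had such a site (5.53%), and of those called higher 64 of 2911 (2.2%). The 120 bases before the start of Mcm6 (chr1:128359706-128359825, minus strand) are shown because they hold 3 such matches, a pair of which overlap, in capitals.
Mcm6: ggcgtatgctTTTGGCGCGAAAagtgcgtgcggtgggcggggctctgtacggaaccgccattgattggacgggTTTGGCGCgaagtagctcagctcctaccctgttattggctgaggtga
Of G1 cyclins, inhibitors and E2F factors, 19 of 31 fell and 5 rose (median -0.74), or 3 rose without High B or High C. Cyclin D1 (Ccnd1) measured 217, 81.1 and 144 in High and 1635, 1386 and 1500.1 in Low (-3.45 ± 0.50, limma adjusted p = 0.000179). The inhibitor Cdkn1a measured 2208, 2152 and 2303 in High and 455, 632 and 478 in Low (2.10 ± 0.21, limma adjusted p = 1.52e-05), and Rb1, the retinoblastoma protein, rose by 1.02.

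Of 43 genes of the kinetochore and spindle 42 fell (median -3.09), and 1 rose, the checkpoint gene Bub3, which measured 1029, 917 and 1357 in High and 610.0, 516 and 790.1 in Low. That rise (limma adjusted p = 0.0227) was lost without High C, Low A or Low B. It was also lost with each library scaled to the same total. Ttk, the checkpoint kinase, had the widest fall, with 23.5, 17.5 and 26.2 in High and 373, 340.0 and 368 in Low (-3.97 ± 0.49, limma adjusted p = 6.14e-05). Condensin and cohesin genes fell in 19 of 24 cases (median -1.02): the mitotic condensin subunit Ncaph fell by 3.93 on the log2 scale, while the cohesin ring subunit Rad21 was not called, at 5308 ± 428 in High and 6185 ± 927 in Low.

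Nucleotide and one-carbon synthesis genes fell in 23 of 32 cases and rose in 3 (median -1.44; 5 rose with the replicate block). The ribonucleotide reductase subunits split. Rrm2, the subunit of S phase, measured 57.7, 39.6 and 46.5 in High and 414, 432 and 473 in Low (-3.18 ± 0.41), while Rrm2b, the p53-inducible subunit used outside S phase, measured 518, 543 and 498 in High and 173, 188 and 165 in Low (1.56 ± 0.23, limma adjusted p = 0.000196). Phgdh, the entry to serine synthesis, fell by 3.94 and Shmt1 by 3.47 on the log2 scale, and the mitochondrial Mthfd1l rose by 1.30. Genes of homologous recombination and mismatch repair fell in 27 of 33 cases and none rose (median -1.97), with Brca1 at 118, 64.5 and 101 in High and 1034, 1062 and 1087 in Low (-3.52 ± 0.40). With the replicate block 1 gene of this list, Parp1, was called higher.

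Among genes of active stem cells, 22 of 32 fell (median -1.42), and 1, Sox9, rose, or 3 with the replicate block. Gkn3, a secreted gastrokine of crypt base cells, measured 18.9, 1.84 and 8.45 in High and 199, 230.4 and 315 in Low (-4.91 ± 0.81, limma adjusted p = 0.00046). Cdca7, a Myc-responsive chromatin factor, measured 296, 141 and 219.6 in High and 2767, 2871 and 3373 in Low (-3.83 ± 0.39). Rnf43, the ubiquitin ligase that removes Wnt receptors, fell by 2.41. The adhesion receptor Cd44, often used to mark crypts, was not called (4109 ± 393 in High, 3455 ± 446 in Low). Of genes attributed to reserve or regenerating stem cells, 4 of 14 rose and 7 fell, or 4 fell without Low B. The shares over all genes were 23.6% higher and 19.3% lower. Hopx measured 1789.9, 1930.4 and 2044 in High and 863, 869 and 972 in Low (1.09 ± 0.22, limma adjusted p = 0.00169).

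Of 14 Eph receptors and ephrins 3 rose and 5 fell, against 23.6% higher and 19.3% lower over all genes. The ligand Efnb2 measured 1698, 1584 and 2251 in High and 571, 807 and 602 in Low (1.48 ± 0.23), while its receptor Ephb4 measured 1002, 877 and 961 in High and 3693, 3461 and 3308 in Low (-1.88 ± 0.26, limma adjusted p = 0.000137). Among growth factor receptors, Erbb2 fell (604, 581 and 454 in High, 2353, 2354 and 1787 in Low; -1.98 ± 0.20), while its relatives Egfr (1199.6 ± 33.5 in High, 1093 ± 166 in Low) and Erbb3 (6007 ± 82.3 in High, 6499.8 ± 793 in Low) were not called. The 95% interval of the difference was -0.17 to 0.46 for Egfr and -0.54 to 0.32 for Erbb3.

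Ribosome biogenesis genes fell in 37 of 42 cases and none rose (median -1.46). Nucleolin (Ncl) measured 10119, 8627 and 6954 in High and 32887, 30062 and 27549 in Low (-1.83 ± 0.28, limma adjusted p = 0.000291), and Npm1 fell by 2.26, but Ubtf, the RNA polymerase I factor, was not called (2841 ± 93.3 in High, 2901 ± 128 in Low). Cytosolic tRNA synthetase genes fell in 15 of 22 cases and rose in 2 (median -0.76), or in 1 without High A, High C, Low B or Low C, the widest fall being Vars (-2.06), while Gars measured 3829.7, 3384 and 3176 in High and 2402, 2018 and 1959 in Low (0.71 ± 0.16). Nuclear genes of the respiratory chain fell in 29 of 41 cases (median -0.61) and 1 rose, a rise lost without High A, High C, Low A or Low B, and 11 of 13 mitochondrial mRNAs fell (median -0.86), or 7 without Low C.

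Of 35 DNA methylation and Polycomb genes 10 rose and 10 fell (median 0.14), against 23.6% higher and 19.3% lower over all genes. Uhrf1, which recruits the maintenance methyltransferase to new DNA, measured 180.4, 51.6 and 131 in High and 2179.7, 1775 and 1878 in Low (-4.17 ± 0.61, limma adjusted p = 0.000205), and Dnmt1 itself fell by 2.05. The de novo enzyme Dnmt3a rose, with 3524, 3778 and 4359 in High and 2186, 2029.6 and 2018 in Low (0.90 ± 0.11, limma adjusted p = 7.29e-05), as did the demethylating enzyme Tet2 (0.77). In the Polycomb repressive complex, Ezh2 fell (778, 697 and 639 in High, 1889, 1595 and 1735 in Low; -1.30 ± 0.17), while the cofactor Jarid2 rose by 0.87.

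Goblet and Paneth products were lower. Of 21 mucus genes 16 fell and 1 rose (median -2.28), whereas the membrane mucins Muc13 (19508 ± 435 in High, 16686 ± 2641 in Low) and Muc4 (10678 ± 768 in High, 8261 ± 396 in Low) were not called. Muc4 was higher in each High library, however, and limma on the High and Low libraries alone called it (adjusted p = 0.0201). Of 24 Paneth cell genes 16 fell and 3 rose (median -3.41). Those that rose included Wnt3, a niche signal, with 573, 557 and 525 in High and 198, 146 and 111 in Low (1.89 ± 0.27, limma adjusted p = 0.00017). Lyz1, the Paneth lysozyme, measured 936, 103 and 1314 in High and 5296, 7919.8 and 14304 in Low (-4.06 ± 0.75), and High B was far below the other High libraries. Values of defensins are uncertain, since reads of near-identical copies cannot be placed with certainty.

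Enzymes that build glycans were called higher in 10 of 35 cases and lower in 10, against 23.6% higher and 19.3% lower over all genes (median -0.33; 17 lower with library weights). St6galnac6, a sialyltransferase, measured 989.7, 1062 and 1307 in High and 44.7, 22.3 and 30.9 in Low (5.10 ± 0.33, limma adjusted p = 9.31e-07). Gcnt1, which branches core O-glycans, measured 1339.7, 1085 and 1466 in High and 74.1, 57.4 and 75.3 in Low (4.21 ± 0.34), and the fucosyltransferase Fut2 rose by 3.03. Among those that fell, the sulfotransferase Chst4 measured 11.7, 14.7 and 13.5 in High and 192, 391 and 187 in Low (-4.08 ± 0.27), and Galnt5, which starts O-glycans, 39.7, 34.1 and 32.1 in High and 346, 513 and 331 in Low (-3.43 ± 0.32). In the unfolded protein response, 3 of 31 genes rose and 6 fell (7 rose with the replicate block): the sensor Ern1 rose by 0.97 and its goblet cell relative Ern2 measured 115, 108 and 60.8 in High and 805, 1311 and 483 in Low (-3.12 ± 0.42, limma adjusted p = 0.00011).

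Glycolytic genes were higher in 14 of 27 cases and lower in 2 (median 0.59), or 4 lower with each library scaled to the same total. For this and the next 2 lists, the shares over all genes were 23.6% higher and 19.3% lower. Slc2a1, the glucose transporter GLUT1, measured 1109.7, 1244 and 1395 in High and 315, 344 and 288 in Low (1.98 ± 0.17), and Hk1, hexokinase 1, 1753, 1753 and 1832 in High and 382, 367 and 249.6 in Low (2.44 ± 0.24, limma adjusted p = 1.3e-05). The lactate transporters differed in direction: Slc16a3 measured 274, 346 and 336 in High and 57.7, 38.5 and 46.8 in Low (2.73 ± 0.46), whereas Slc16a1 measured 219, 188 and 231 in High and 1294, 1452 and 1438 in Low (-2.71 ± 0.11, limma adjusted p = 1.43e-07). Gapdh was not called (3325 ± 696 in High, 3232 ± 757 in Low). Sterol synthesis and uptake genes rose in 14 of 25 cases and fell in 3 (median 0.62), or rose in 9 without Low C. In fatty acid synthesis, where 3 of 18 rose and 4 fell (6 rose with the replicate block), the desaturase Fads2 fell by 2.46 and the carboxylase Acacb rose by 2.13.

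Brush border enzymes and transporters rose in 3 of 23 cases and fell in 2 (median -0.21). With the replicate block 5 fell, and 1 rose without High C, Low A or Low C. For all lists of this paragraph, the shares over all genes were 23.6% higher and 19.3% lower. The amino acid transporter Slc6a19 measured 2599, 2855 and 3376 in High and 483, 694 and 455 in Low (2.45 ± 0.46, limma adjusted p = 0.00106), and the maltase-glucoamylase Mgam 5104, 6426 and 4486 in High and 17591, 22770.3 and 17862 in Low (-1.87 ± 0.36). Of 10 enterocyte markers 2 were higher in High, or 1 without High B, High C, Low A or Low C, and 3 were lower with the replicate block. Of 16 genes of the microvillus cytoskeleton 6 rose and 1 fell (median 0.20; none fell without High B, High C or Low A, and 2 fell with the replicate block). Among those that rose, the adhesion link Cdhr2 measured 21199, 23584 and 23278 in High and 3692, 5142 and 2584 in Low (2.63 ± 0.46), and Cdhr5 rose by 2.77 and the actin bundler Espn by 2.85. Of 20 claudins and tight junction genes 7 rose and 6 fell, with Cldn4 at 1043, 1729.5 and 1422 in High and 310.5, 522 and 288 in Low (1.92 ± 0.37), and the pore-forming Cldn15 at 198, 175 and 134 in High and 1408, 1853 and 1495 in Low (-3.23 ± 0.20, limma adjusted p = 8.13e-07).

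Among the largest falls by t statistic, Isx, a transcription factor that controls vitamin A uptake, measured 129.9, 126 and 115 in High and 1181, 1255 and 1292 in Low (-3.32 ± 0.15, limma adjusted p = 1.68e-07). Cftr, the chloride channel of crypt fluid secretion, measured 506, 301 and 469.7 in High and 5915, 6432 and 8124 in Low (-4.02 ± 0.23, limma adjusted p = 6.44e-07). Nlrp6, an inflammasome sensor, fell by 3.10 and Kitl, a ligand of a receptor tyrosine kinase, by 2.92. Among the largest falls by difference of means, Slc12a2, the cotransporter that loads chloride for secretion, measured 5177, 2522 and 3808 in High and 47018, 38602 and 43152 in Low (-3.54 ± 0.53, limma adjusted p = 0.000244). Cps1, the mitochondrial enzyme that starts the urea cycle, measured 3486, 1992 and 3316 in High and 33446, 30256 and 35306 in Low (-3.53 ± 0.28). Among the largest rises by t statistic were Ptpn18 (3.11), a phosphatase, and the cyclin Ccnj (4.91).

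Genes whose 95% interval lay closest to 0 among those with a mean of at least 1000 included Qrich1, with 1692, 1570.1 and 1734 in High and 1717, 1668 and 1576 in Low (interval -0.21 to 0.23). Of 22 immediate early genes, which respond within minutes to stimulation or handling of cells, 4 rose and 1 fell (median 0.19), or 8 rose and 3 fell with the replicate block and 1 rose without Low A. Of 10 tested Sox genes 5 rose and none fell by limma (median 0.94), or 2 fell in the fit of the High and Low libraries alone. Sox9, the gene of the sorting reporter, was among the 5, so its rise was likely beforehand. For both lists, the shares over all genes were 23.6% higher and 19.3% lower.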

How the data were processed

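The deposited table holds, per gene symbol and library, a signal that per the file's own values is a whole read count divided by a size factor of the library. Every value came out whole within a tolerance of 0.01 when divided by the library's step. Per the labels' protocols, RNA of 12000 cells was depleted of ribosomal RNA, prepared with a Clontech SMARTer Pico kit (version v2) and sequenced single-end. For the aligner, counter, genome build and annotation, the sources used here give no name.

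Genes that reached 10 in 3 or more of 12 libraries were tested with limma 3.58.1 (R 4.3.3) on log2(value + 1), with 1 mean per gate, a trended prior and Benjamini-Hochberg adjustment. edgeR 4.0.16 and DESeq2 1.42.0 were run on the recovered reads as alternatives. The script was tested on simulated data. Deviations of same-letter High and Low libraries correlated across genes at 0.151 (A), 0.18 (B) and 0.341 (C), and those of different letters at -0.198 to 0.0338, so the letters were taken to pair the libraries, from the data and not from the labels. The fit reported has no such block.

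The 54 gene lists and the genes named were chosen with earlier results of these data known, so their counts are descriptions. Genes outside the lists were named by rule: called, averaging 100 or more across all 12 libraries, no overlap between the gates, and among the largest in log2 difference, t statistic or difference of means, or, for genes near 0, a mean of at least 1000 and the narrowest interval around 0. Promoter sequences are from RefSeq (GRCm38.p6) and were matched by symbol. Some members of the lists are counted but not reported here by name.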

Additional observations from a re-analysis of the deposited data

How the results depend on the processing

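Of 25 alternatives, each kept both counts of called genes within 1.5 times of 3915 higher and 3195 lower. With the replicate letter as a block, 4381 genes were higher and 3646 lower. By edgeR there were 4225 higher and 3132 lower, and by DESeq2 4266 and 3448. Leaving out 1 High or Low library gave between 3224 and 3393 higher and between 2713 and 2819 lower. Without the 3 Sublow libraries, an alternative chosen after seeing the data, there were 4438 higher and 3599 lower. Library weights gave the most, 5165 higher and 4162 lower. With 3 libraries a gate, differences of low genes, such as Olfr558 with 14 reads over the Low libraries, rest on few reads.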
